A study of Homo sapiens with 8 samples.

Results

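The genes described here are 46 components of the machinery that copies DNA, taken by symbol from a table of 60230 genes. They comprise 9 genes of origin licensing (ORC1 to ORC6, CDC6, CDT1 and GMNN), 3 grouped under helicase activation (CDC45, MCM10 and the MCM-related MCM8), 10 polymerase and primase subunits, 7 genes of the sliding clamp and its loaders, 6 of single-strand binding and Okazaki fragment processing, 5 of fork protection and checkpoint signalling, 2 of chromatin assembly and 4 of deoxynucleotide supply. RNA sequencing was performed on HepG2 cells, a human liver cancer line, that overexpress the cytochrome P450 enzyme CYP2C19. Every group, the DMSO solvent control included, came from this overexpressing line, and parental HepG2 cells were not analysed here. For a day the cells received DMSO, compound 4 (column name metylcresol), compound 5 (tetrabut) or compound 6 (cyclohexil), which are bisphenol antioxidants used in plastics, with 2 samples in each of the 4 groups. Compounds 4 and 6 share a methylene bridge and methyl groups and differ in carrying tert-butyl or cyclohexyl groups, whereas compound 5 has an ethylidene bridge and tert-butyl groups in place of the methyl groups. Each compound was given at the concentration at which it inhibited the growth of these cells to the same extent in a separate, longer assay. The doses were close to each other but not equal. Equal inhibition at the time of RNA extraction was not shown. Sample titles name day 1 for replicate 1 and day 2 for replicate 2, and nothing in the labels says that the replicates came from separate cultures, so the p-values measure the spread between these samples, which may be technical.

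DNA replication starts from origins that are licensed in G1 phase, when the origin recognition complex, CDC6 and CDT1 load the MCM helicase. In S phase CDC45, the GINS complex and MCM10 turn the loaded helicase into an active fork, the polymerase alpha-primase complex lays down primers, and polymerases delta and epsilon extend them with the PCNA clamp that the RFC complex loads. Ribonucleotide reductase, thymidylate synthase and thymidine kinase provide the deoxynucleotides, and many of these genes are transcribed by E2F factors as cells pass from G1 into S phase.

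Promoter sequences were available for 41 of the 46 members in a RefSeq-derived table of human promoters on GRCh38.p14, each spanning 250 bases before to 50 bases after the gene start. DSCC1, DNA2, POLD3, RPA2 and RPA3 were not matched. Both strands were searched for the E2F letters TTTCCCGC or TTTCGCGC or TTTGCCGC or TTTGGCGC, for the CCAAT box and for the cell cycle homology element TTTGAA. An E2F match was present in 14 members (34.15%) compared with 908 of 27305 promoters in the table (3.325%). The CCAAT box was found in 22 members (53.66%) against 35.7% of all promoters, and TTTGAA in 1 member (2.439%) against 15.43%. The following windows cover the 80 bases before the gene start of 4 members with a match, drawn from licensing, the polymerases, the clamp and nucleotide supply, and of 2 members without a match that mark the extremes of the expression data (ORC2 and TK1). Capitals mark the E2F letters on either strand, and each sequence runs 5′ to 3′ on the strand of the gene.

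CDT1, chr16:88803709-88803788, plus strand: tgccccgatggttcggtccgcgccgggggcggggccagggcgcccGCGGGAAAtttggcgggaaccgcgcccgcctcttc
POLA2, chr11:65261882-65261961, plus strand: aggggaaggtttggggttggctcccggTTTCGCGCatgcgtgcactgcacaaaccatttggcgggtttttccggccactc
PCNA, chr20:5126623-5126702, minus strand: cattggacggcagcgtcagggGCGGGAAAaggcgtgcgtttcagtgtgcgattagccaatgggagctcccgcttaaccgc
TYMS, chr18:657573-657652, plus strand: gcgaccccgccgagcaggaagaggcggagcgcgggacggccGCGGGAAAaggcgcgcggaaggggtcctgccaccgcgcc
ORC2, chr2:200963661-200963740, minus strand: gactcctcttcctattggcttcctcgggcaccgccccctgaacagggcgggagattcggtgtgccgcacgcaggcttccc
TK1, chr17:78187205-78187284, minus strand: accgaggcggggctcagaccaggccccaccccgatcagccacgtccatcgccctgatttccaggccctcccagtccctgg

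The matches began 35 bases before the start in CDT1, 53 bases before it in POLA2, 59 in PCNA and 39 in TYMS. These are letter matches only, and the binding of E2F to these windows was not measured.

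The total count was between 9791659 and 17814595 per sample (median 11108659), and all 46 members, each read from its own Ensembl identifier, were among the 13400 genes that passed the filter on low counts, the lowest with 961 counts over the 8 samples. Expression is given as CPM, the count relative to the TMM-scaled library size, in the order of replicate 1 and replicate 2. Albumin, alpha-fetoprotein and the other 7 hepatocyte and hepatoma markers were detected in every library, at a summed level of 50660 to 54650 CPM with DMSO, 35000 to 42430 with compound 4, 43460 to 44730 with compound 5 and 37680 to 43800 with compound 6. Not every marker followed the sum. HNF4A was at 314 and 298 CPM with DMSO, 323.5 and 327 with compound 4, 254 and 294 with compound 5, and 326 and 318 with compound 6. FGB was at 172.5 and 200 CPM with DMSO and 254 and 285 with compound 5. TTR and SERPINA1 overlapped DMSO with compound 4. The fibroblast markers COL1A2 and PDGFRA and the leukocyte marker PTPRC were at 0 in all libraries, COL1A1 reached at most 0.10 CPM, and the endothelial markers PECAM1 and CDH5 together reached at most 0.85 CPM. CD68, a lysosomal marker of macrophages, was at 20.1 to 24.7 CPM with DMSO at 38.6 to 39.3 CPM with compound 4, at 20.03 to 25.9 CPM with compound 5 and at 29.4 to 30.7 CPM with compound 6. The part of the lower sum of hepatocyte markers and of CD68 in the values below was not tested, and in bulk RNA fewer replicating cells and less RNA per cell cannot be told apart. Overlaps with another expressed gene affect 14 members (ORC4, POLA1, POLA2, PRIM1, POLD3, RFC3, RFC4, RFC5, RPA1, RPA3, FEN1, CHAF1A, CHAF1B and TYMS), so their counts are less certain, and the 15 pseudogenes named after 8 of the members had 0 counts. CYP2C19 itself was at 27.67 and 16.41 CPM with DMSO, and at 31.43 and 44.25 with compound 4. With compound 5 it was at 52.77 and 37.96 CPM, and with compound 6 at 23.94 and 21.22. The part of these CYP2C19 levels in the values below was not tested. The libraries within a group were not equally close for the replication genes. The median log2 difference of replicate 2 from replicate 1 over the 46 members was 0.43 with compound 5, with 44 members higher in replicate 2, and 0.21 with DMSO, with 41 members higher, compared with -0.02 for compound 4 and 0.05 for compound 6. Over all 13400 genes these medians lay between -0.01 and 0.01, and results that rest on compound 5 are therefore also given without each of its libraries.

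The fitted levels of nearly all replication genes were lower with each compound than with DMSO, and most calls came with compound 4. The fold change was negative for 45, 44 and 45 of the 46 members with compounds 4, 5 and 6, against 48.64%, 49.63% and 47.25% of all genes tested. With this compound 13 of the 46 members fell, 0 rose and 33 did not pass the threshold (quasi-likelihood F-test of edgeR, Benjamini-Hochberg adjusted p under 0.05 over all 13400 genes), where 3.91% of all genes were called lower and 5.60% higher. The 13 genes were CDC6, MCM10, POLA1, POLD2, POLD3, RFC3, LIG1, RPA2, CLSPN, WDHD1, RRM1, RRM2 and TK1, so that every role except chromatin assembly contributed at least 1 gene. The median log2 fold change of the 46 members was -0.56, which is 0.68 times the DMSO level, compared with a median of 0.01 over all genes tested. Both compound 4 libraries lay below both DMSO libraries for 44 members, and 28.0% of all genes showed this arrangement. Some members, among them PCNA, had adjusted p-values between 0.05 and 0.06 and were not called. With the day, that is the replicate number, as a block in the fit 24 members fell, where 5.37% of all genes were called lower. None of the 13 calls held in all fits that left out 1 library. No member was called when DMSO replicate 2 or compound 4 replicate 2 was left out, and in these fits 0.168% and 0.407% of all genes were called lower. Leaving out DMSO replicate 1 gave 3 called members (1.07% of all genes lower) and leaving out compound 4 replicate 1 gave 2, or 4.35% of the members (2.58% of all genes lower). With compound 6 replicate 1 or replicate 2 left out 6 members were called (2.60% and 2.59% of all genes lower), and with compound 5 replicate 1 or replicate 2 left out 30 were called (5.40% and 5.21%). The median stayed between -0.66 and -0.47 in these fits.

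With compound 5, 2 members fell, POLA2 and CLSPN, and 0 rose, at a background of 2.95% of all genes called lower and 5.35% higher. The median of the 46 members was -0.32 (all genes tested 0.00), both libraries lay below both DMSO libraries for 26 members, and 28.5% of all genes did so. The 2 called members were 4.35% of the 46, close to the share of all genes called lower. With the day as a block 4 members fell, the additional ones being MCM10 and POLD3, where 4.04% of all genes were called lower. The replicates differed widely. Relative to the DMSO mean, the median member was at -0.57 on the log2 scale in compound 5 replicate 1 and at -0.15 in replicate 2. Without replicate 2, 24 members were called, at a background of 5.23% of all genes lower, and the median was -0.57. Without replicate 1, 0 members were called, at a background of 0.320%, and the median was -0.17. Both calls were also lost without DMSO replicate 1 or DMSO replicate 2, where 0.253% and 0.204% of all genes were called lower.

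With compound 6, 0 members passed the threshold of edgeR's quasi-likelihood test, and the lowest adjusted p was 0.088, for TK1. The background was 0.0821% of all genes called lower and 0.493% higher. At an unadjusted p under 0.05, 26 members were lower and 0 higher, compared with 7.72% of all genes lower and 10.9% higher. The Wald test of DESeq2 called 7 members (CDC6, FEN1, MCM10, PCNA, POLE3, TK1 and TYMS), all lower, and 1.37% of all genes lower. The median of the 46 members was -0.37 (all genes tested 0.02), and both libraries lay below both DMSO libraries for 38 members, compared with 26.0% of all genes. Leaving out compound 5 replicate 1 gave 9 called members and leaving out compound 5 replicate 2 gave 6, against 1.05% and 0.893% of all genes called lower.

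**Figure D1:**
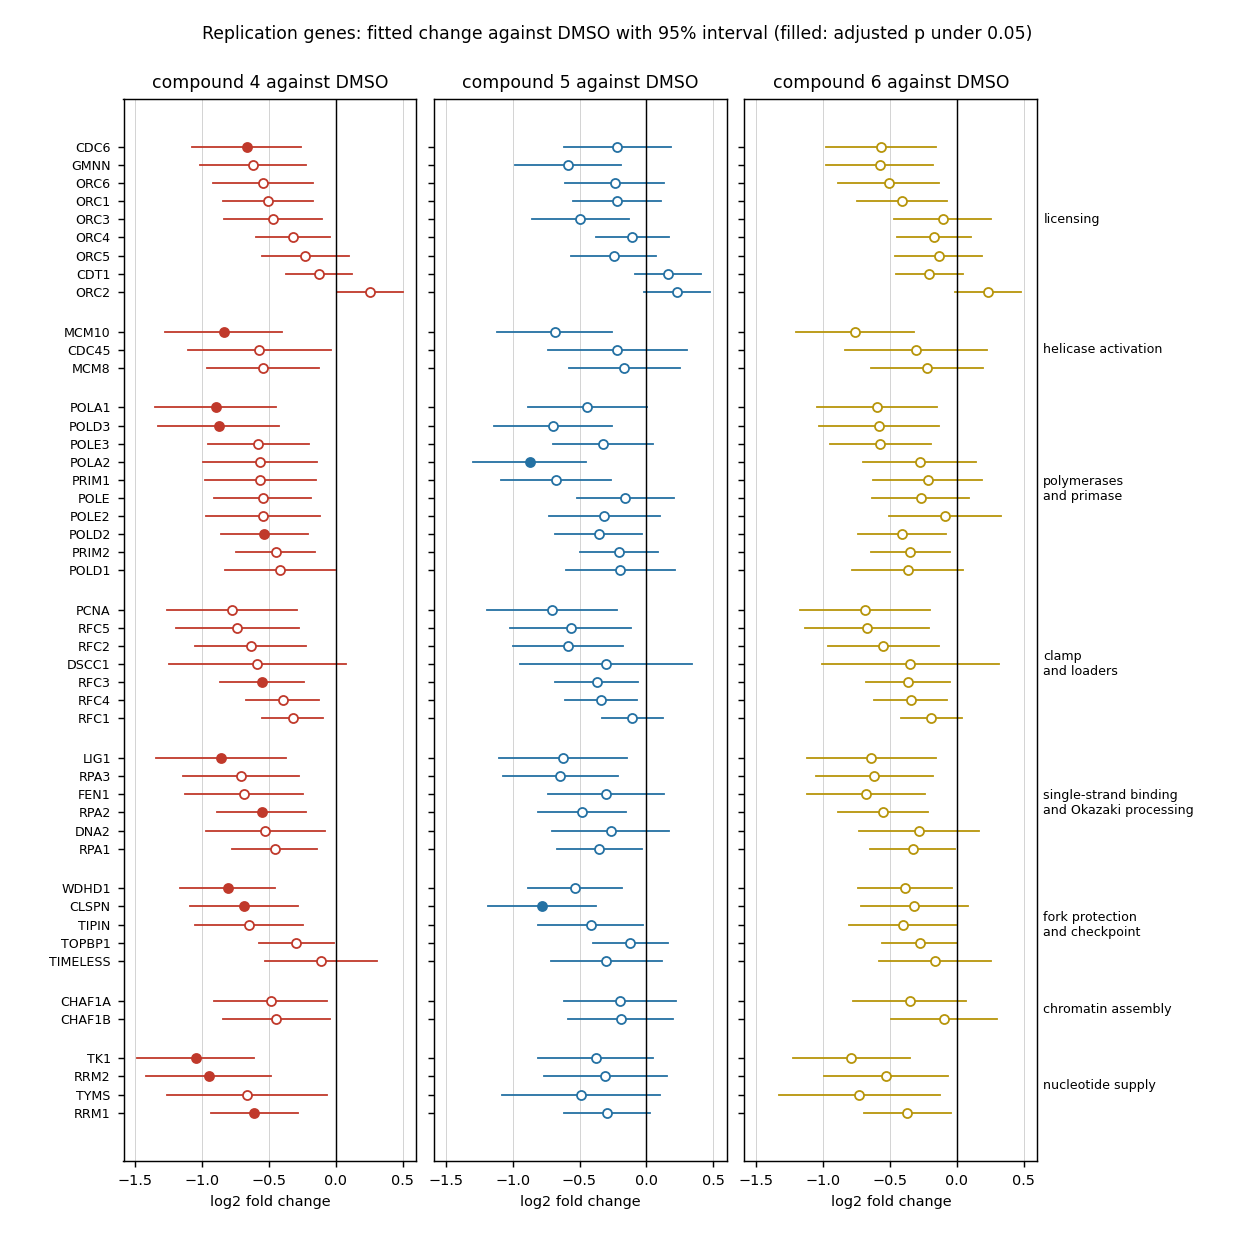
Fitted log2 fold change against DMSO (x axis) of each of the 46 members (y axis, grouped by role) for compounds 4, 5 and 6, with bars for the 95% interval. Filled points passed an adjusted p of 0.05, which applies to 13, 2 and 0 members. Nearly all points lie left of 0, ORC2 lies to the right in every panel and CDT1 to the right with compound 5.

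Comparing the samples within a day gave the same direction. Compound 4 was below DMSO on both days for 44 of 46 members, compound 5 for 42 and compound 6 for 40, whereas 34.7%, 37.49% and 33.86% of all genes were lower on both days. The median difference of compound 4 from DMSO over the members was -0.42 on day 1 and -0.66 on day 2, that of compound 6 was -0.29 and -0.50, and that of compound 5 was -0.48 and -0.25. The 3 comparisons share the DMSO libraries, so their common direction does not come from independent controls. The lower DMSO library was replicate 1 for 41 of the 46 members.

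**Figure D2:**
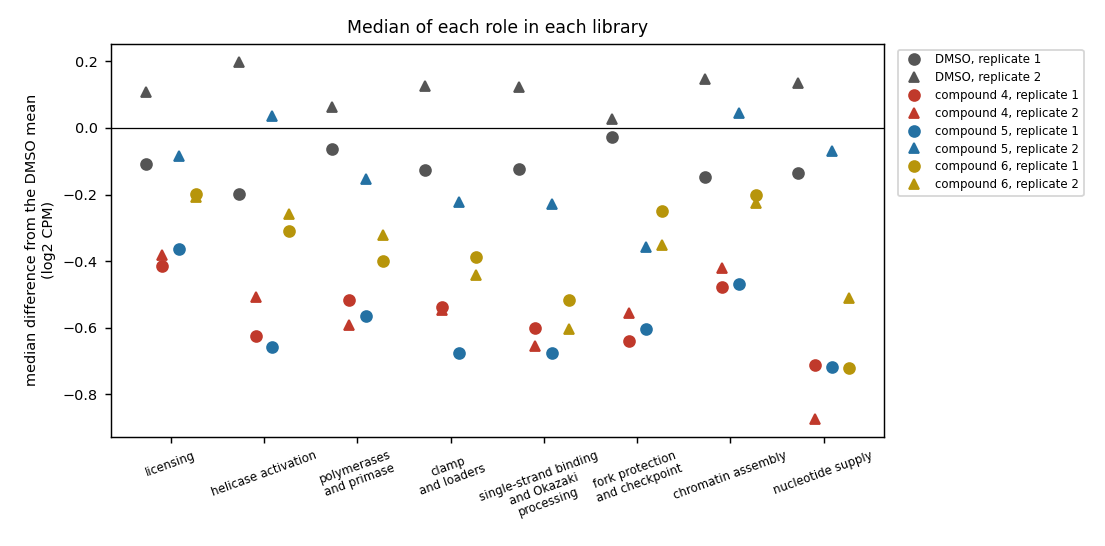
Median log2 CPM difference from the DMSO mean (y axis) over the members of each of the 8 roles (x axis) in each of the 8 libraries, with colours for treatments, circles for replicate 1 and triangles for replicate 2. The compound 4 libraries lie close together and below DMSO in every role, and replicate 2 of compound 5 lies above replicate 1 in every role.

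Among the licensing genes CDC6, the ATPase that recruits the MCM helicase to origins, stood at 80.7 and 104 CPM with DMSO, 56.8 and 59.5 with compound 4, 64.5 and 93.9 with compound 5, and 58.8 and 65.8 with compound 6. The compound 4 and compound 6 libraries lay below both DMSO libraries, and replicate 2 of compound 5 lay between them. It fell with compound 4 (log2 fold change -0.67, SE 0.18, adjusted p = 0.0496). CDT1, the partner of CDC6 in loading, was at 90.2 and 80.98 CPM with DMSO, 79.9 and 76.7 with compound 4, 89.6 and 102 with compound 5, and 74.4 and 73.99 with compound 6, which placed the compound 4 and 6 libraries only slightly below DMSO and replicate 2 of compound 5 above both DMSO libraries. Its log2 fold change was -0.13 with compound 4, 0.16 with compound 5 and -0.21 with compound 6, and none passed. Geminin (GMNN), the inhibitor of CDT1, had -0.62, -0.59 and -0.58 with compounds 4, 5 and 6, with the lowest adjusted p of 0.057 for compound 4. All 6 libraries of treated cells were below both DMSO libraries for GMNN.

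The subunits of the origin recognition complex, which marks origins on chromatin, spread from negative to positive fold changes. ORC1, the subunit whose level cycles, was at 48.1 and 53.5 CPM with DMSO, 32.6 and 38.9 with compound 4, 38.4 and 48.8 with compound 5, and 39.05 and 37.4 with compound 6. ORC6, which stabilizes the complex on DNA, was at 40.2 and 55.8 CPM with DMSO, 33.1 and 32.9 with compound 4, 36.7 and 44.7 with compound 5, and 33.1 and 34.4 with compound 6. For both genes the compound 4 and compound 6 libraries lay below DMSO, and compound 5 overlapped DMSO. ORC2 was the only member above both DMSO libraries with any compound, and it was so with all of them, at 50.9 and 52.9 CPM with DMSO, 61.2 and 62.8 with compound 4, 62.5 and 59.4 with compound 5, and 64.95 and 57.2 with compound 6. Its log2 fold changes of 0.26, 0.23 and 0.23 did not pass, with adjusted p-values of 0.17, 0.20 and 0.29 by the quasi-likelihood test (edgeR, Benjamini-Hochberg). No share of all genes above both DMSO libraries is given here. ORC3, ORC4 and ORC5 had log2 fold changes between -0.47 and -0.23 with compound 4, between -0.50 and -0.11 with compound 5, and between -0.17 and -0.11 with compound 6, and none passed. The counts of ORC4 are uncertain, since ACVR2A and MBD5 overlap it on the opposite strand.

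In helicase activation MCM10, a scaffold that the new fork requires, was at 31.5 and 32.99 CPM with DMSO, 16.98 and 19.01 with compound 4, 15.3 and 24.4 with compound 5, and 19.1 and 18.9 with compound 6. It was below DMSO in all treated libraries without overlap. MCM10 fell with compound 4 (log2 fold change -0.84, SE 0.20, adjusted p = 0.029) and reached -0.69 with compound 5 and -0.76 with compound 6, at adjusted p = 0.056 and 0.10 by the quasi-likelihood test (edgeR, Benjamini-Hochberg). CDC45, the helicase subunit that joins at firing, was at 26.8 and 35.4 CPM with DMSO, 20.4 and 21.5 with compound 4, 19.4 and 33.9 with compound 5, and 24.7 and 25.7 with compound 6, with replicate 2 of compound 5 inside the DMSO range. MCM8 is a helicase of meiosis and break repair that is related to the MCM complex, and it was counted in this role by grouping only. It had the fold changes nearest to 0 of these genes, -0.54, -0.16 and -0.22 for compounds 4, 5 and 6, and none passed.

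All 10 polymerase and primase subunits had negative fold changes with every compound. POLA1, the catalytic subunit of polymerase alpha, was at 44.8 and 54.9 CPM with DMSO, 24.9 and 28.6 with compound 4, 28.6 and 44.6 with compound 5, and 32.3 and 33.6 with compound 6, and fell with compound 4 (log2 fold change -0.90, SE 0.20, adjusted p = 0.026). No compound library reached the lower DMSO library, and replicate 2 of compound 5 came closest to it. POLA2, the regulatory subunit of the same enzyme, was at 17.4 and 17.2 CPM with DMSO, 12.7 and 10.8 with compound 4, 7.82 and 10.9 with compound 5, and 13.2 and 15.4 with compound 6. Its mean was lowest in compound 5, where it fell (log2 fold change -0.87, SE 0.19, adjusted p = 0.026), while the fitted change was -0.57 with compound 4 and -0.28 with compound 6. Without compound 5 replicate 1 the POLA2 value with compound 5 was -0.68 and no longer passed. The primase subunits PRIM1 and PRIM2, which make the RNA primer, stood at -0.68 and -0.21 with compound 5 and at -0.57 and -0.45 with compound 4, and none passed.

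Of polymerase delta, which extends the lagging strand, the PCNA-binding subunit POLD3 was at 20.1 and 22.4 CPM with DMSO, 12.3 and 10.9 with compound 4, 10.2 and 15.7 with compound 5, and 13.8 and 14.5 with compound 6. The linking subunit POLD2 was at 136 and 154 CPM with DMSO, 102 and 97.8 with compound 4, 96.2 and 129.6 with compound 5, and 103 and 115 with compound 6. POLD3 fell with compound 4 (log2 fold change -0.88, SE 0.20, adjusted p = 0.028), as did POLD2 (log2 fold change -0.54, SE 0.15, adjusted p = 0.0496). All treated libraries lay below DMSO for both subunits. POLD1, the catalytic subunit, had the value nearest to 0 of the polymerase genes with compound 4, -0.42, and was not called. The catalytic subunit of polymerase epsilon, POLE, had log2 fold changes of -0.55, -0.16 and -0.27 with compounds 4, 5 and 6. Its partner POLE2 had -0.55, -0.31 and -0.09. For the histone-fold subunit POLE3 the values were -0.58, -0.32 and -0.57. None of the epsilon subunits passed the threshold.

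**Figure D3:**
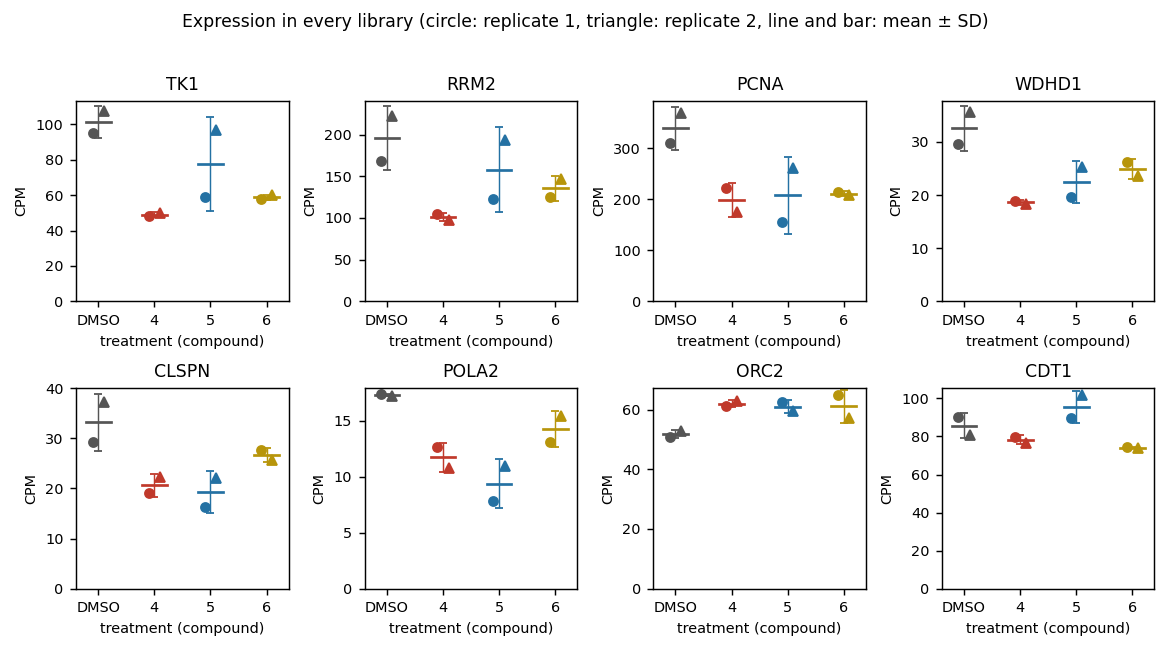
Expression in CPM (y axis, from 0) of 8 members in every library, by treatment (x axis), with circles for replicate 1, triangles for replicate 2 and lines with bars for mean ± SD (n = 2). TK1 and RRM2 were low with compound 4 and split between the replicates of compound 5, the mean of POLA2 was lowest with compound 5, and ORC2 lay above DMSO with all compounds.

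PCNA, the sliding clamp, had the highest level of the members per length of merged exons, at 230.6 CPM per kilobase with DMSO, compared with 54.5 for TK1, the next in order, and 3.03 for POLA2, the lowest. Merged exons join those of all annotated transcripts of a gene, so this order is not one of levels per transcript length. PCNA was at 309.5 and 369 CPM with DMSO, 222 and 174 with compound 4, 154 and 261 with compound 5, and 214 and 208 with compound 6. All treated libraries lay below DMSO, with log2 fold changes of -0.78, -0.71 and -0.68, and adjusted p-values of 0.053, 0.072 and 0.15 by the quasi-likelihood test (edgeR, Benjamini-Hochberg). The 5 subunits of the RFC clamp loader were lower in all 6 treated libraries than in either DMSO library. With a single compound, 28.0%, 28.5% and 26.0% of all genes lay below both DMSO libraries for compounds 4, 5 and 6. No share is given for all compounds at once, and the compounds share these DMSO libraries. RFC3 fell with compound 4 (log2 fold change -0.55, SE 0.14, adjusted p = 0.038), from 54.4 and 62.1 CPM with DMSO to 39.9 and 39.6 CPM. RFC1, the large subunit, had the values nearest to 0, -0.32, -0.10 and -0.19, and did not pass. RFC2 and RFC5 stood at -0.64 and -0.74 with compound 4 and at -0.55 and -0.67 with compound 6, without passing. DSCC1, part of an alternative loader, had the widest standard error of the members, with a log2 fold change of -0.59 (SE 0.30) with compound 4.

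Replication protein A covers single-stranded DNA at the fork. Its 3 subunits, RPA1, RPA2 and RPA3, were below both DMSO libraries in all treated libraries. For compounds 4, 5 and 6 taken singly, 28.0%, 28.5% and 26.0% of all genes lay there. RPA2 was at 32.1 and 33.6 CPM with DMSO, 22.1 and 22.6 with compound 4, 20.3 and 26.5 with compound 5, and 23.6 and 21.1 with compound 6, and fell with compound 4 (log2 fold change -0.55, SE 0.15, adjusted p = 0.047). The values of RPA1 and RPA3 were -0.46 and -0.71 with compound 4, -0.35 and -0.64 with compound 5 and -0.33 and -0.62 with compound 6. LIG1, the ligase that joins Okazaki fragments, was at 60.6 and 71.4 CPM with DMSO, 38.7 and 34.1 with compound 4, 31.4 and 53.8 with compound 5, and 41.4 and 43.4 with compound 6, and fell with compound 4 (log2 fold change -0.86, SE 0.22, adjusted p = 0.037). All its treated libraries were below DMSO. FEN1, the flap nuclease, was at 83.7 and 100.1 CPM with DMSO, 59.8 and 54.5 with compound 4, 57.3 and 91.5 with compound 5, and 55.1 and 59.8 with compound 6, and its compound 5 libraries straddled the lower DMSO value. The counts of FEN1 are uncertain because it overlaps FADS2 and TMEM258. The nuclease DNA2 had -0.53, -0.27 and -0.28 with compounds 4, 5 and 6, none of which passed.

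Within fork protection WDHD1, which links polymerase alpha to the helicase, was at 29.5 and 35.6 CPM with DMSO, 18.9 and 18.2 with compound 4, 19.7 and 25.2 with compound 5, and 26.3 and 23.5 with compound 6. It fell with compound 4 (log2 fold change -0.81, SE 0.16, adjusted p = 0.017) and among the alternative fits the call was lost only without DMSO replicate 2 and without compound 4 replicate 2. CLSPN (claspin), the adaptor between ATR and CHK1, was at 29.2 and 37.3 CPM with DMSO, 19.1 and 22.3 with compound 4, 16.3 and 22.2 with compound 5, and 27.7 and 25.8 with compound 6. It was the only member called with both compound 4 (log2 fold change -0.69, SE 0.18, adjusted p = 0.043) and compound 5 (-0.78, SE 0.18, adjusted p = 0.032), and compound 6 gave -0.32. The claspin libraries of all compounds lay below both DMSO libraries. TIMELESS and TIPIN form a complex that travels with the fork. TIMELESS was at 66.8 and 69.5 CPM with DMSO, 54.2 and 71.8 with compound 4, 44.7 and 65.7 with compound 5, and 58.3 and 63.4 with compound 6, with compound 4 replicate 2 above both DMSO libraries, and its log2 fold change with compound 4 was -0.11, the nearest to 0 of this role. TIPIN had -0.65, -0.42 and -0.40 with compounds 4, 5 and 6, and the adjusted p with compound 4 was 0.051 by the quasi-likelihood test (edgeR, Benjamini-Hochberg). TOPBP1, which activates ATR, had -0.30, -0.12 and -0.28 and did not pass. The chromatin assembly factor subunits CHAF1A and CHAF1B, which place histones behind the fork, had -0.49 and -0.45 with compound 4, -0.20 and -0.19 with compound 5 and -0.35 and -0.10 with compound 6, and none passed.

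The 4 nucleotide supply genes among the members had the lowest median of the 8 roles with compounds 4 and 6. It was -0.81 with compound 4, -0.34 with compound 5 and -0.63 with compound 6. With compound 4, 3 of the 4 genes (75%) were called lower, where 3.91% of all genes were. The ranking by median did not extend to nucleotide supply as a whole. The 10 nucleotide supply genes outside the members had medians of -0.42, -0.40 and -0.38 with compounds 4, 5 and 6. TK1, the thymidine kinase of the salvage pathway, was at 95.2 and 108 CPM with DMSO, 48.2 and 49.9 with compound 4, 59.03 and 96.7 with compound 5, and 57.7 and 59.9 with compound 6. With compound 4 it fell by 51.7% (log2 fold change -1.05, SE 0.20, adjusted p = 0.015), the largest change of any member, and with compound 6 it stood at -0.79. RRM2, the regulated subunit of ribonucleotide reductase, was at 168 and 223 CPM with DMSO, 105 and 97.9 with compound 4, 122 and 194 with compound 5, and 125 and 146 with compound 6, and fell by 48.2% with compound 4 (log2 fold change -0.95, SE 0.21, adjusted p = 0.024). RRM1, the large subunit of the same enzyme, was at 94.5 and 106 CPM with DMSO, 69.8 and 61.7 with compound 4, 70.5 and 92.7 with compound 5, and 75.2 and 80.2 with compound 6, and fell with compound 4 (log2 fold change -0.61, SE 0.14, adjusted p = 0.03). For TK1, RRM2 and RRM1 the compound 4 and compound 6 libraries did not overlap DMSO. Compound 5 replicate 2 was inside the DMSO range for TK1 and RRM2 and just below it for RRM1. TYMS, thymidylate synthase, was at 92.1 and 119 CPM with DMSO, 71.7 and 61.3 with compound 4, 49.97 and 99.5 with compound 5, and 59.2 and 67.9 with compound 6, the widest split between the compound 5 libraries of all members (log2 difference 0.99). Its log2 fold changes of -0.67, -0.49 and -0.73 did not pass. The counts of TYMS are uncertain because TYMSOS and ENOSF1 overlap it on the opposite strand.

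The 15 members listed as textbook E2F targets and the other 31 members were set side by side. The list was a choice made with earlier results of these data known, and the other members are not a group without E2F targets. Some of them, such as POLA2 and RFC3, held an E2F match in the promoter window. With compound 4 the E2F targets had a median log2 fold change of -0.69, and the other members -0.54. Of the E2F targets 8 (53.33%) were called lower, and of the other members 5 (16.13%), where 3.91% of all genes were called lower. With compound 6 the medians were -0.57 and -0.35, and with compound 5 they were -0.31 and -0.32. In compound 5 the E2F targets were at a median of -0.67 relative to the DMSO mean in replicate 1 and at -0.07 in replicate 2. The 14 members with an E2F match in the promoter window had medians of -0.56, -0.41 and -0.30 with compounds 4, 5 and 6, and the 27 members whose window held no match had -0.54, -0.30 and -0.37. TK1, RRM2 and MCM10, which fell with compound 4, were among the members with none of the searched E2F letters in the window. So were ORC1, CDC45, FEN1 and RRM1, and all of these genes are on the list of 15 textbook E2F targets. The search thus missed listed targets, and a window without a match does not mark a gene as free of E2F control.

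Differences between the compounds were then tested directly for every member at these similar but unequal doses. None of the 46 members passed in any of the 3 pairs by edgeR's quasi-likelihood test, with 0%, 0.313% and 1.03% of all genes called for compound 4 against 6, 4 against 5 and 6 against 5. At an unadjusted p under 0.05, 2 members (4.35%) were lower and 0 higher in compound 4 than in compound 6, where 3.43% of all genes were lower and 3.63% higher. In compound 4 against compound 5, 6 members (13.04%) were lower and 0 higher, where 7.63% of all genes were lower and 8.62% higher. In compound 6 against compound 5, 1 member (2.17%) was lower and 4 (8.70%) were higher, where 8.16% of all genes were lower and 10.4% higher. The counts for compound 4 against 6 and compound 6 against 5 were thus near or under the background. The Wald test of DESeq2 called 0, 1 and 0 members, the 1 member being TK1 in compound 4 against compound 5, and 0.440%, 1.55% and 2.77% of all genes. Compounds 4 and 6, which differ in tert-butyl or cyclohexyl groups, had a median difference of -0.13 over the members, and the largest were POLE2 (-0.46, 95% interval -0.89 to -0.03), RRM2 (-0.42, 95% interval -0.89 to 0.05) and WDHD1 (-0.42, 95% interval -0.78 to -0.06). Smaller differences were estimated for TK1 (-0.26, 95% interval -0.70 to 0.18) and PCNA (-0.09, 95% interval -0.58 to 0.39). With intervals of this width the compounds are not shown to act alike on these genes.

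The median difference of compound 4 from compound 5 over the members was -0.22 on the log2 scale. TK1 (-0.67, 95% interval -1.11 to -0.23), RRM2 (-0.64, 95% interval -1.11 to -0.18) and POLA1 (-0.46, 95% interval -0.91 to -0.01) had the largest differences, with adjusted p = 0.16, 0.19 and 0.30 by the quasi-likelihood test (edgeR, Benjamini-Hochberg). POLA2 pointed the other way (0.31, 95% interval -0.12 to 0.74). Compound 6 had its largest differences from compound 5 for POLA2 (0.60, 95% interval 0.17 to 1.03), CLSPN (0.46, 95% interval 0.06 to 0.87) and PRIM1 (0.46, 95% interval 0.04 to 0.87), and TK1 was the lowest (-0.41, 95% interval -0.85 to 0.03). CDT1 (-0.37, 95% interval -0.61 to -0.12) had the lowest adjusted p of this pair among the members, 0.13 by the quasi-likelihood test (edgeR, Benjamini-Hochberg). These differences rested on which compound 5 library was used. Without compound 5 replicate 2 the median difference of compound 4 from compound 5 was 0.018 and that of compound 6 from compound 5 was 0.18, and without compound 5 replicate 1 they were -0.40 and -0.24, where TK1 was called lower in compound 4 than in compound 5 (-0.97).

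**Figure D4:**
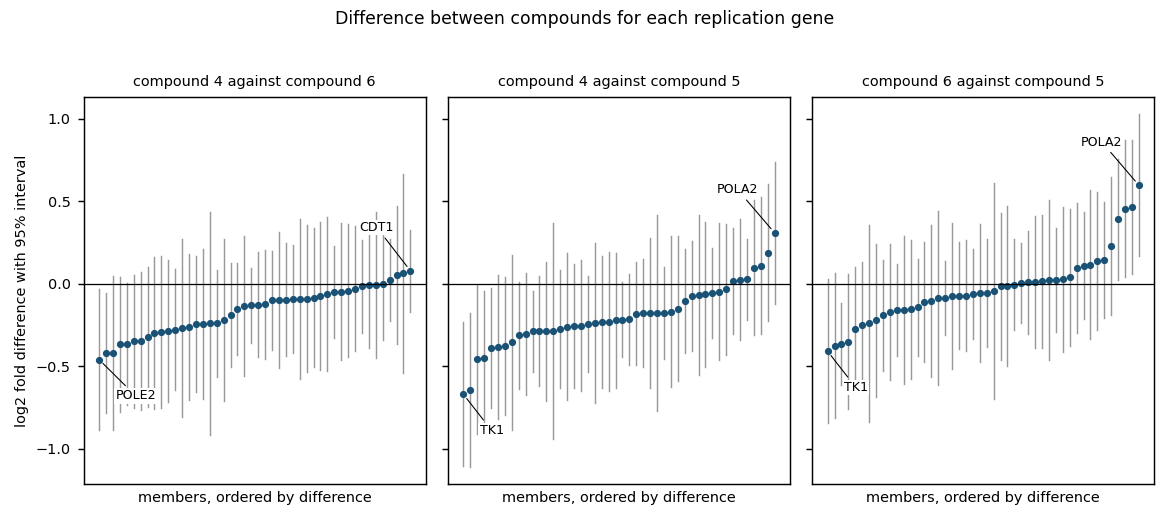
Log2 fold difference (y axis) between compounds 4 and 6, 4 and 5, and 6 and 5 for each of the 46 members, ordered by difference along the x axis, with 95% intervals. Points lie mostly below 0 in the left and middle panels, POLA2 lies highest and TK1 lowest in the right panel, and none passed an adjusted p of 0.05.

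Another 54 genes of the replication pathway that are not among the 46 members were counted in the same fit. With compound 4, 18 (33.3%) fell and 2 (3.70%) rose, where 3.91% of all genes fell and 5.60% rose. With compound 5, 4 (7.41%) fell and 0 rose, where 2.95% of all genes fell. With compound 6, 0 passed by the quasi-likelihood test, while 24 (44.4%) were lower and 2 (3.70%) higher at an unadjusted p under 0.05, where 7.72% of all genes were lower and 10.9% higher. Their median log2 fold changes of -0.52, -0.32 and -0.37 lay close to those of the members. The MCM2 to MCM7 helicase and the GINS complex held 7 of the genes that fell with compound 4. The largest changes with compound 4 were those of TICRR, which brings TOPBP1 to the origin (-1.18), the topoisomerase TOP2A (-1.17), the histone chaperone ASF1B (-1.10), GINS2 (-1.07), the PCNA-associated factor PCLAF (-0.93), GINS1 (-0.92) and ATAD5, which unloads PCNA (-0.89). With compound 5 the genes that fell were ASF1B (-1.29), GINS1 (-0.91), the origin-firing kinase CDC7 (-0.89) and GINS4 (-0.77). The 2 genes that rose with compound 4, named after their values were seen, were POLD4, the small subunit of polymerase delta (0.87), and TK2, the mitochondrial thymidine kinase (0.61). TK2 and TK1 therefore changed in opposite directions with compound 4.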

How the data were processed

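RNA was sequenced from CYP2C19-overexpressing HepG2 cells in 4 groups of 2 samples. The authors quantified the reads of a directional library kit with Salmon 1.5.0 against GENCODE 38 on GRCh38 and summarized them to genes, and deposited whole-number counts without normalization for 60230 genes. Per the file headers, the 2 libraries of replicate 1 with DMSO and with compound 4 were merged from more than 1 sequencing sample. Whether the quantification used the strand is not given in the sources used here. Counts were fitted in R 4.3.3 with edgeR 4.0.16 (TMM, filterByExpr with min.count 10, quasi-likelihood test, group as the only term, all 8 samples), and p-values were adjusted by Benjamini-Hochberg over 13400 genes with a threshold of 0.05. Groups of 2 cannot reach that threshold in a permutation test, so none was run. The scripts were tested on simulated data with known changes. CPM uses the TMM library sizes, and levels per kilobase use merged exons of GENCODE 29. Figures were drawn with matplotlib 3.10.9.

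Same-numbered replicates share the day in the sample titles. Their deviations from the group means correlated at -0.14 (compounds 4 and 5) to 0.17 (compounds 4 and 6) over 13400 genes. Alternatives were DESeq2 1.42.0, other size factors, other filters, the day as a block, the 4 compared samples alone and leaving out each library. The members, the roles, the E2F list and the pathway list were chosen with earlier results of these data known. Genes named with values are members past the threshold, the members with the lowest and highest change of each role with compound 4, members whose sign goes against their role, the 3 members with the largest difference between compounds 4 and 5, members central to a role, and up to 8 pathway genes by size of change.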

Additional observations from a re-analysis of the deposited data

How the results depend on the processing

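The number of members past the threshold depended on the processing. With compound 4, 13 members were called, compared with 26 by the Wald test of DESeq2, 33 without a filter on low counts, 21 with at least 10 counts in every sample and 25 when only the 4 samples compared were fitted, and 0 to 30 when 1 library was left out. The share of all genes called lower was 3.91% in the reported fit and 4.61%, 4.55%, 4.79%, 5.12% and 0.168% to 5.40% under these settings. With compound 5, 2 members were called, against 10, 14, 5 and 1 (all genes 2.95%, against 3.53%, 4.40%, 4.28% and 2.26%) and 0 to 24 without 1 library. With compound 6, 0 were called, against 7 by DESeq2 (1.37% of all genes), 18 without the filter (2.27%) and 17 from 4 samples (3.49%), and 0 to 9 without 1 library. For compound 4 against compound 5, DESeq2 called 1 member and the fit without the filter 3 (0.672% and 1.32% of all genes lower), and leaving out 1 library gave 0 to 1. The day as a block gave 24 members with compound 4 and 4 with compound 5 and called none in the other 4 comparisons. The block with the day numbers of compound 5 crossed, added after seeing the data because the deviations of compounds 4 and 5 correlated negatively, also called 0 members between them, with 76 genes overall against 128 uncrossed. Every called member was lower in all these fits. Wherever 1 library was left out, the lone sample was assumed to vary like the other groups.

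When 1 library was left out, the median log2 fold change ranged from -0.57 to -0.17 with compound 5 and from -0.50 to -0.28 with compound 6, and the median difference of compound 4 from compound 6 from -0.17 to -0.12. It ranged from -0.40 to 0.018 for compound 4 against 5 and from -0.24 to 0.18 for compound 6 against 5, reversing in both without compound 5 replicate 2 (0.018 and 0.18). TIMELESS with compound 4 ranged from -0.33 to 0.061, the positive value without compound 4 replicate 1. The cause was not tested. The precision of every value is limited by 2 samples per group and by 9791659 to 17814595 counts per sample.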
